A study of Mus musculus with 44 samples.

Results

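The genes described here make, break down and bind hyaluronan, and they were followed in back skin of mice given bleomycin, a drug injected under the skin as a model of fibrosis. The 9 members were taken by name and not by a cut on their values, with earlier results of these data known: the synthases Has1, Has2 and Has3, the breakdown genes Hyal1, Hyal2 and Cemip, the receptor Cd44, and the binding proteins Tnfaip6 and Vcan. All 9 were found among the 43411 genes of the deposited table, and all 9 passed the filter on low values. Hyaluronan is a long unbranched sugar chain that synthases in the cell membrane push out into the matrix, where it holds water and fills the space between collagen fibres and between the cells of the epidermis. Hyaluronidases cut it into fragments, receptors such as Cd44 hold it at the cell surface, and proteoglycans and cross-linking proteins build it into larger networks. It is known for a rapid turnover in skin and for a part in wound repair and inflammation.

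RNA was sequenced from 44 female C57Bl/6 mice of WT genotype that were 8 weeks old at the start. Of these, 10 received saline, 10 received bleomycin for 2 weeks and 10 for 4 weeks, and 6 and 8 were left untreated for 6 and 10 weeks after 4 weeks of bleomycin. Bleomycin was given every day under the skin of the back (100 uL at 1 U/mL in the study methods). A figure legend in the supplement of the study gives a lower concentration. Part of each biopsy went to histology, which was not analysed here. The labels give no time for the saline mice, so the recovery groups and their saline controls may differ in age, and this cannot be told apart from recovery. Since all mice started at 8 weeks of age, groups sampled later were also older. The bleomycin groups thus differ in age from each other and from the recovery groups. In those comparisons age cannot be told apart from treatment time or recovery.

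Between 8509094 and 15285577 reads fell on genes per mouse, and the values below are normalized counts, that is reads divided by 1 size factor per mouse. A gene was called changed when its absolute fold change was above 1.5 and its adjusted p was below 0.05 in limma, fitted over 17037 genes with Benjamini-Hochberg adjustment. Whole skin was measured, so fewer cells of a type and less RNA per cell cannot be told apart. Markers of hair shaft and inner root sheath were lower in both bleomycin groups (all 7 and all 6 tested) and 5 of 6 myeloid markers were higher. Basal and suprabasal keratins and fibroblast collagens, which define skin, were abundant in all groups. The libraries least like the others of their group were 2-week bleomycin mouse 2 (median r = 0.938) and saline mouse 1 (0.942), against 0.947 to 0.985 for the rest, and the calls of members are given with and without that pair of mice.

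Per kb of exon, which allows genes to be compared, Cd44 was the most abundant member with a median of 406 normalized counts per kb over the 44 mice. Hyal2, a hyaluronidase anchored at the cell surface, followed with 141, Hyal1, the lysosomal hyaluronidase, with 74.2, Tnfaip6 with 68.5 and Vcan with 43.4. The synthases were much lower, with 18.6 for Has2, 12.4 for Has3 and 2.05 for Has1, and Cemip stood at 2.68. Has1 was close to the limit of detection, since it had between 1 and 30 reads in a mouse. A floor of detection of 3 reads was taken as a guide only, and values below it were kept in the medians and tests.

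**Figure D1:**
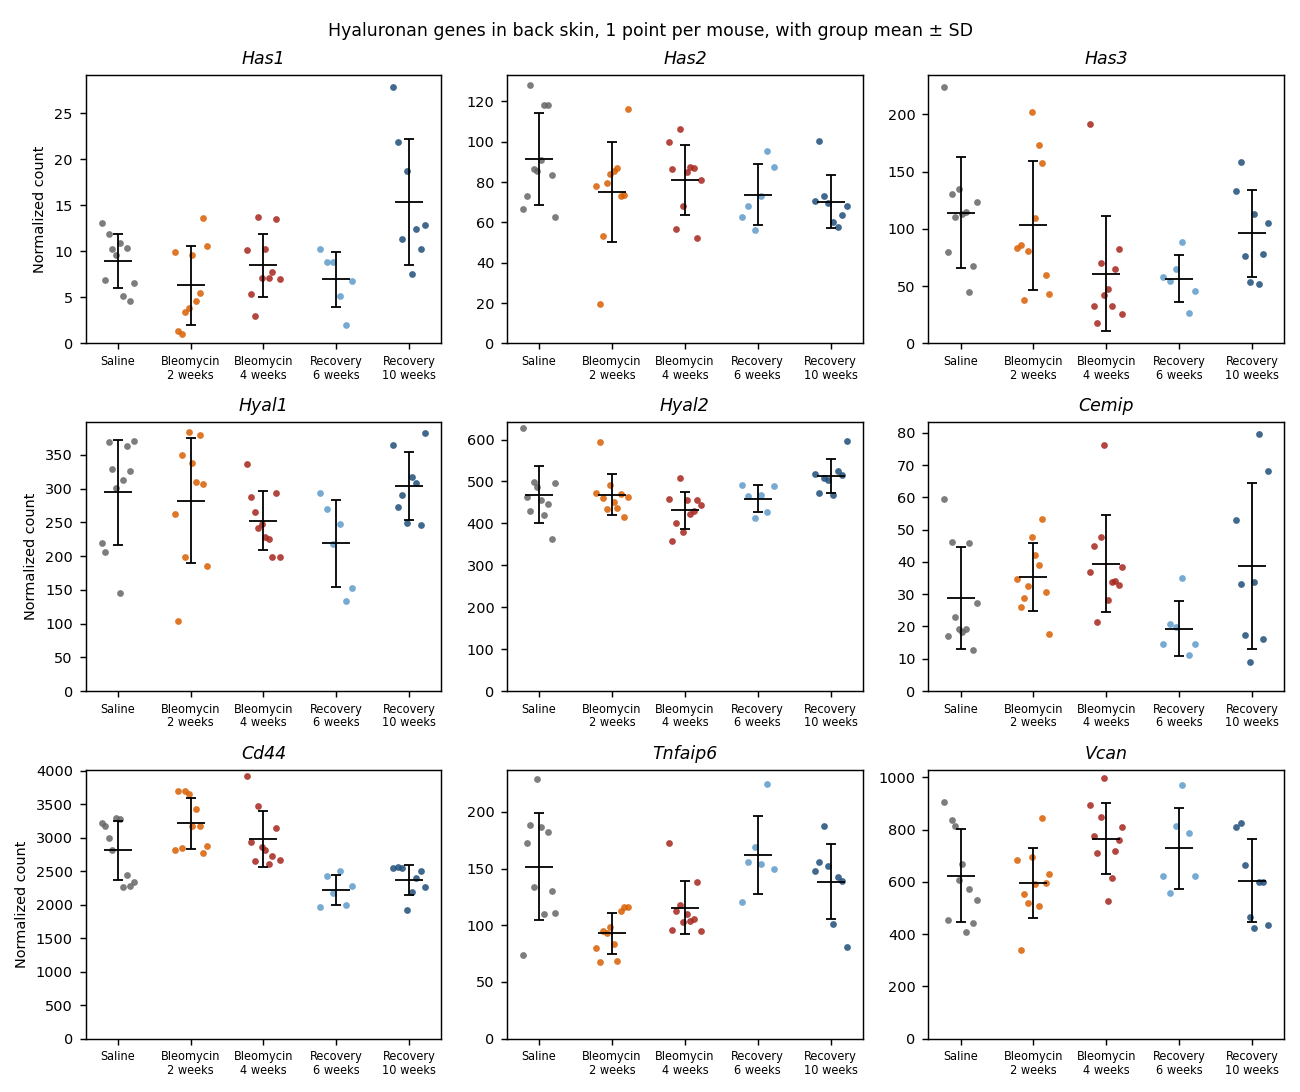
Normalized counts of the 9 members in each of the 44 mice, by group; points are mice, and bars give the group mean and SD. Tnfaip6 was lower at 2 weeks of bleomycin (67.6 to 116) than in saline (73.9 to 229), Has3 was lower at 4 weeks (17.6 to 191) than in saline (44.7 to 224), and the groups overlap for most other members.

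Tnfaip6 was lower than in saline at 2 weeks of bleomycin and Has3 at 4 weeks, and Cemip was lower after 6 weeks of recovery than after 4 weeks of bleomycin. At 2 weeks 1 of 9 members was called, while 16.7% of all genes tested were. At 4 weeks it was again 1 of 9, against 17.9% of all genes, so neither share stood out from the rest of the transcriptome. After 6 weeks of recovery 0 of 9 were called against saline (5.04% of all genes), and after 10 weeks 0 of 9 (3.05%). These zeros come from limma, where 3 and 2 members had an unadjusted p below 0.05, and edgeR gave 0 in both while DESeq2 gave 1 and 0. The median absolute log2 fold change of the members was 0.22 at 2 weeks and 0.18 at 4 weeks, beside 0.21 and 0.21 over all genes tested. It was 0.33 at 6 and 0.23 at 10 weeks of recovery, beside 0.16 and 0.13. Of all 63 member comparisons, 3 were called, and in 26 the 95% interval lay within a 1.5-fold change either way.

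**Figure D2:**
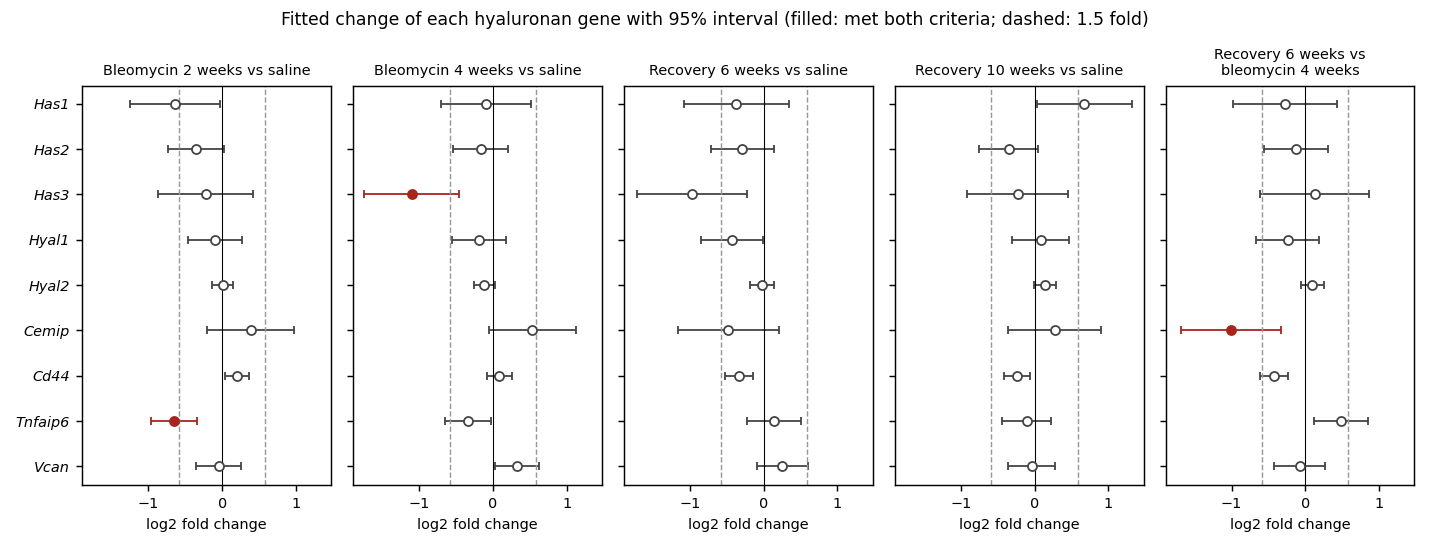
Fitted log2 fold change of each member with its 95% interval in the 4 comparisons with saline and in 6 weeks of recovery against 4 weeks of bleomycin. Filled points met both criteria: Tnfaip6 at 2 weeks (-0.65), Has3 at 4 weeks (-1.10) and Cemip after 6 weeks of recovery against 4 weeks of bleomycin (-1.01).

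Hyaluronan synthases differ in the length and speed of the chains they make. Has3, which is known in the epidermis, was the one synthase that passed the test. Its normalized counts ran from 44.7 to 224 in saline skin, with a median of 114, and from 38.0 to 202 at 2 weeks, with a median of 84.5. At 4 weeks they ran from 17.6 to 191, with a median of 45.1. The ranges overlapped, with 4-week mouse 1 highest at 191, but 5 of 10 mice at 4 weeks lay below every saline mouse and 9 of 10 below the saline median. Has3 was 2.14-fold lower at 4 weeks than in saline (log2 fold change -1.10, 95% interval -1.74 to -0.46, limma adjusted p = 0.0055). Without saline mouse 1 and 2-week mouse 2 the change was -0.98 (limma adjusted p = 0.0147). In the same comparison all 7 hair shaft markers (a summed level of 9.61 to 1335 against 300 to 57327 in saline) and all 6 inner root sheath markers (27.9 to 4753 against 2002 to 209554) were lower. Mast cell markers were higher in 4 of 4 (4657 to 7562 against 1589 to 3516), Schwann cell markers in 3 of 3 (3355 to 5527 against 1234 to 3810) and myeloid markers in 5 of 6 (5797 to 15590 against 2682 to 7545). Of the epidermis, 2 of 3 stress keratins were higher, and 0 of 3 basal and 0 of 3 suprabasal markers were called. Neutrophil markers were higher in 2 of 4, lymphatic markers in 2 of 3 and blood vessel markers in 1 of 3. Fat cell markers were lower in 2 of 4 and fibroblast markers in 1 of 5. The part of these cell types in the lower Has3 was not tested.

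The lower values of Has3 were also seen early in recovery, without passing the test. The 6 mice at 6 weeks of recovery held 26.7 to 88.4 with a median of 56.4, and all 6 lay below the saline median. The fitted change against saline was -0.97 (-1.72 to -0.23), which missed the threshold in limma (adjusted p = 0.085) and in edgeR (0.0866) and passed it in DESeq2 (0.0473). At 10 weeks the range was 52.3 to 159 with a median of 91.5, and the difference from saline was -0.23 (-0.91 to 0.45, limma adjusted p = 0.79). Between 2 and 4 weeks of bleomycin Has3 differed by -0.87 (limma adjusted p = 0.095).

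Has2, which is required for the heart to form in the embryo and is a main synthase of fibroblasts, was steadier. Its medians were 86.2 in saline, 78.9 and 85.9 at 2 and 4 weeks of bleomycin, and 70.6 and 68.8 at 6 and 10 weeks of recovery, and the ranges of all groups overlapped. The fitted differences from saline lay between -0.35 and -0.16, with limma adjusted p from 0.139 to 0.522. At 2 weeks mouse 2 held 19.5, while the others lay at or above 53.5.

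Has1 was counted with few reads in every group. Its medians were 9.96 in saline, 5.02 and 7.43 at 2 and 4 weeks of bleomycin, 7.78 at 6 weeks of recovery and 12.6 at 10 weeks. At 2 weeks 4 of 10 mice lay below all saline mice, with 1 to 12 reads per mouse, and the fitted change was -0.64 (limma adjusted p = 0.095). At 10 weeks of recovery 6 of 8 mice lay above all 6 mice at 6 weeks (7.51 to 27.9 against 2.05 to 10.2). That difference was 1.05 (0.31 to 1.79), with an unadjusted p of 0.0065 and a limma adjusted p of 0.274, so it did not pass the test.

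The makeup of the synthase message varied widely between mice of one group. Per kb of exon, Has2 was above Has3 in 31 of the 44 mice, with 7 of 10 in saline, 6 of 10 and 8 of 10 in the 2-week and 4-week bleomycin groups, and 6 of 6 and 4 of 8 in the 6-week and 10-week recovery groups. The median share of Has2 was 53.4% in saline and 66.8% at 4 weeks of bleomycin, and that of Has3 was 41.3% and 26.2%. The shares of Has3 overlapped between these groups (18.9 to 65.3% and 16.1 to 53.7%). The median share of Has1 was lowest at 2 weeks (2.55%) and highest at 10 weeks of recovery (8.56%). The sum of the 3 synthases per kb ran from 31.3 to 53.8 in saline and from 16.8 to 55.8 at 4 weeks, with medians of 40.8 and 27.8.

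**Figure D3:**
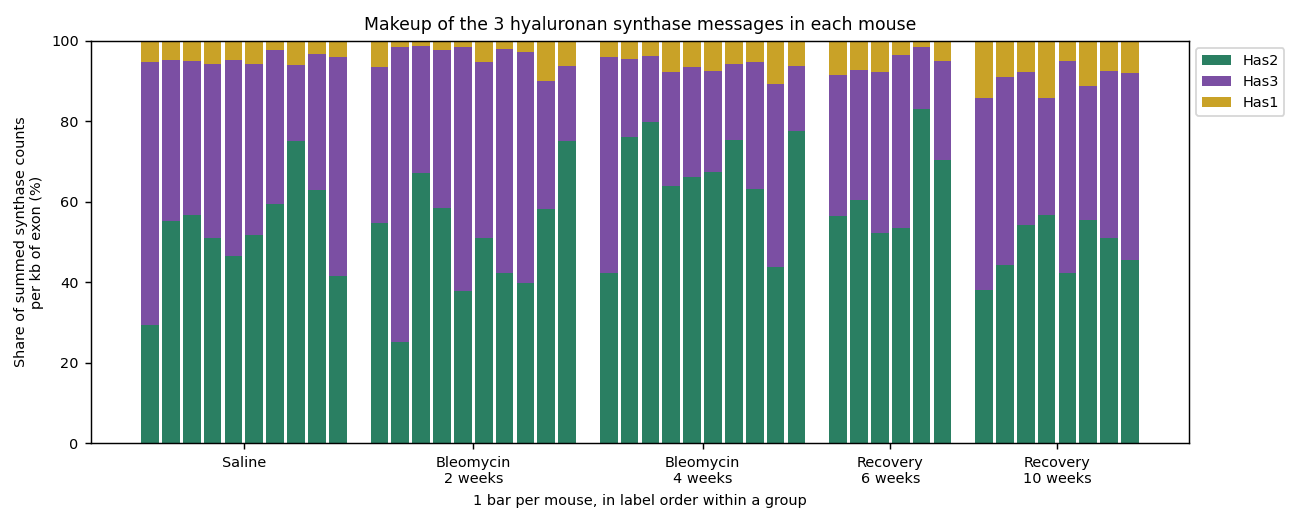
Share of Has1, Has2 and Has3 in the sum of the 3 synthases per kb of exon, with 1 bar for each of the 44 mice. The Has2 share runs from 25.1 to 75.0% among mice at 2 weeks of bleomycin and from 52.2 to 82.9% at 6 weeks of recovery.

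Hyal1, Hyal2 and Cemip, the 3 breakdown genes among the members, did not pass the test in any comparison with saline. Hyal2 was the least variable member, with a CV between 7.05 and 14.8% within groups. It held 364 to 628 in saline. The ranges were 416 to 594 and 359 to 507 in the 2-week and 4-week bleomycin groups, and 414 to 492 and 467 to 598 in the 6-week and 10-week recovery groups. In all 4 comparisons with saline its 95% interval lay within a 1.5-fold change. Hyal1 had medians of 320 in saline, 308 and 244 at 2 and 4 weeks of bleomycin, and 232 and 300 at 6 and 10 weeks of recovery. Its largest difference from saline was -0.43 at 6 weeks of recovery (limma adjusted p = 0.197). The counts of Hyal1 are uncertain, because 50.8% of its exon bases are shared with Naa80 and 4.21% with Hyal3, both on the same strand. The way such reads were counted is not given in the sources used here.

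Cemip binds hyaluronan and starts its breakdown in skin fibroblasts. It held 12.6 to 59.6 in saline (median 21.1). The 2-week bleomycin group held 17.6 to 53.4 (33.6) and the 4-week group 21.5 to 76.3 (35.5). The 6-week recovery group held 11.3 to 35.0 (17.2) and the 10-week group 8.91 to 79.8 (33.5). All 10 mice at 4 weeks lay above the saline median, yet the fitted rise of 0.53 did not pass the test (-0.06 to 1.12, limma adjusted p = 0.155). The saline mice were uneven, with 3 of 10 at 45.9 to 59.6.

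Cemip was lower in the 6-week recovery group than in the 4-week bleomycin group, and it was the 1 of 9 members called there, against 11.9% of all genes tested. All 6 recovery mice lay below the 4-week median and 5 of 6 below every 4-week mouse. The fall was 2.01-fold (log2 fold change -1.01, 95% interval -1.69 to -0.33, limma adjusted p = 0.0235), on 11 to 34 reads per mouse in recovery and 22 to 97 at 4 weeks. Without 6-week mouse 1, 5 or 6 the adjusted p rose above 0.05, to at most 0.0739. Saline mouse 1 and 2-week mouse 2 belong to neither group, and leaving them out of the fit gave the same change (limma adjusted p = 0.016). Myeloid markers also differed between these groups, with 5 of 6 lower in recovery and a summed level of 4449 to 5512 against 5797 to 15590. All 4 neutrophil markers (39.0 to 166 against 138 to 856), 3 of 4 mast cell markers (3058 to 4723 against 4657 to 7562) and 2 of 3 stress keratins (1802 to 7767 against 4575 to 29381) were lower in recovery too. All 6 inner root sheath markers (99.4 to 100789 against 27.9 to 4753), all 7 of the hair shaft (14.4 to 24862 against 9.61 to 1335) and 2 of 4 fat cell markers (4284 to 7215 against 3225 to 4911) were higher. The part of these cell types in the fall of Cemip was not tested. By design the recovery mice were also older than the 4-week mice, which cannot be told apart from recovery.

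Cd44, the main surface receptor for hyaluronan, was high in all skin samples and differed between treated and recovering mice. It held 2258 to 3300 in saline, 2776 to 3697 at 2 weeks of bleomycin and 2603 to 3918 at 4 weeks. In recovery it held 1962 to 2496 at 6 weeks and 1926 to 2563 at 10 weeks, so neither recovery group overlapped with either bleomycin group, as was the case for 3.06% of all genes tested. The 6-week recovery group differed from the 4-week bleomycin group by -0.42 (-0.61 to -0.23, limma adjusted p = 0.00082), under the 1.5-fold criterion. Against saline it was -0.33 at 6 weeks of recovery (-0.52 to -0.14, limma adjusted p = 0.021) and -0.24 at 10 weeks (limma adjusted p = 0.094), and 0.20 and 0.09 at 2 and 4 weeks of bleomycin (limma adjusted p = 0.052 and 0.42). The 6 myeloid markers had a summed level of 2682 to 7545 in saline. With bleomycin the sum was 6338 to 17018 at 2 weeks and 5797 to 15590 at 4 weeks. In recovery it was 4449 to 5512 at 6 weeks and 3509 to 5164 at 10 weeks. At both recovery times 0 of 6 were called against saline. Against 4-week bleomycin mice, 5 of 6 myeloid, 4 of 4 neutrophil and 3 of 4 mast cell markers were lower in 6-week recovery. So were 2 of 3 stress keratins. All 7 hair shaft, all 6 inner root sheath and 2 of 4 fat cell markers were higher. The part of these cell types in the Cd44 differences was not tested, and the recovery mice were also older than the bleomycin mice.

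Tnfaip6 encodes TSG-6, which moves heavy chains of inter-alpha-inhibitor onto hyaluronan and is known as a gene induced by inflammatory cytokines. In this skin it fell at 2 weeks of bleomycin. Saline mice held 73.9 to 229 with a median of 153, and 2-week mice held 67.6 to 116 with a median of 93.9. The ranges overlapped, with saline mice 1, 7 and 10 (73.9, 109.5 and 110.8) among the 2-week values, and all 10 mice at 2 weeks lay below the saline median. Tnfaip6 was 1.57-fold lower (log2 fold change -0.65, 95% interval -0.97 to -0.34, limma adjusted p = 0.00079). Without saline mouse 1 and 2-week mouse 2 the change was -0.71 (limma adjusted p = 0.00013). The fold change stood close to the criterion, and without saline mouse 5, which held 229, it was -0.58 and fell under it.

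At 4 weeks of bleomycin and in recovery all mice lay within the saline range of Tnfaip6. At 4 weeks of bleomycin it held 95.2 to 172 with a median of 108, a difference from saline of -0.34 (limma adjusted p = 0.079). After 10 weeks of recovery it held 80.9 to 187 with a median of 145. After 6 weeks it held 120 to 225 with a median of 155, which did not overlap with the 2-week group (9.57% of all genes tested did not). Against the 4-week bleomycin group that was a difference of 0.48 (0.12 to 0.84, limma adjusted p = 0.042), under the 1.5-fold criterion. Other measures moved at 2 weeks as well: 3 of 5 fibroblast markers were lower than in saline, with a summed level of 37580 to 117519 against 74036 to 160850. Stress keratins of the epidermis were higher in 3 of 3, at 2563 to 35592 against 1909 to 11352. So were 4 of 4 neutrophil markers (101 to 3639 against 37.4 to 155), 4 of 4 mast cell markers (2948 to 6011 against 1589 to 3516) and 5 of 6 myeloid markers, while 3 of 3 melanocyte markers (278 to 1138 against 185 to 7483) and 2 of 4 fat cell markers (2069 to 5357 against 2559 to 6357) were lower. Also lower were all 7 hair shaft markers (6.73 to 260 against 300 to 57327) and all 6 inner root sheath markers (31.8 to 1864 against 2002 to 209554). T cell markers were higher in 1 of 4, and blood vessel and Schwann cell markers in 1 of 3 each. None of these markers was at 0 in all mice, and their part in the fall of Tnfaip6 was not tested.

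Vcan, a large proteoglycan that binds hyaluronan through its head domain, had its highest median at 4 weeks of bleomycin and did not pass the test. Its medians were 588 in saline, 594 and 769 in the 2-week and 4-week bleomycin groups, and 705 and 601 in the 6-week and 10-week recovery groups. At 4 weeks 9 of 10 mice lay above the saline median, and the difference was 0.33 (0.03 to 0.63, limma adjusted p = 0.083). Between 4 and 2 weeks it was 0.38 (limma adjusted p = 0.131).

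Later time points were also compared with each other, and these groups differ in age as well as in time. Between 4 and 2 weeks of bleomycin 0 of 9 members were called, against 2.35% of all genes, with 2 at an unadjusted p below 0.05 in limma and 0 calls in edgeR and DESeq2. Between 10 and 6 weeks of recovery 0 of 9 were called, against 0.088% of all genes, with 3 at an unadjusted p below 0.05 in limma and 0 calls in edgeR and DESeq2. When groups were ordered by their median, neighbouring groups overlapped for every member except Cd44, where 10 weeks of recovery lay below 4 weeks of bleomycin. Of all genes tested, 3.85% had at least 1 such pair of neighbouring groups without overlap.

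Promoter sequence is shown for the called members that the RefSeq table holds, so that the control region of the transcripts measured can be seen. The table held 7 of the 9 members, and Has2 and Has3 were not among them. The stretches end at or before both the RefSeq and the GENCODE start of the gene (build GRCm38.p6), and capitals mark matches on either strand to an AP-1 motif (TGANTCA) or a TATA box (TATAAA).
Tnfaip6, chr2:52037863-52038008, plus strand: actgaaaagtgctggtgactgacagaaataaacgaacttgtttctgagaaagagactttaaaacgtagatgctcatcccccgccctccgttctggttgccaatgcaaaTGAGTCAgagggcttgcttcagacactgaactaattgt
Cemip, chr7:84086506-84086755, minus strand: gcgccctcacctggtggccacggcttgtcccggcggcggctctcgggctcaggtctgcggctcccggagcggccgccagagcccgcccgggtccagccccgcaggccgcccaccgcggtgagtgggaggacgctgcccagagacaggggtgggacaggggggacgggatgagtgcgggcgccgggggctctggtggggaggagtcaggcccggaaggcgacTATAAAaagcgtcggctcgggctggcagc

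Counted back from the RefSeq start, the AP-1 match of Tnfaip6 lies at -142 to -136 and the TATA match of Cemip at -29 to -24. An NF-kB motif was searched as well and matched once among the 7 members, in Hyal2. Over the 250 bases before the start, 6.75% of 32817 promoters held the AP-1 motif, 12.4% the TATA box and 7.25% the NF-kB motif. A match is a matter of letters alone.

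The members sit on 7 chromosomes (GRCm38). Has1 lies at chr17:17843323-17855205, Has2 at chr15:56665627-56694539 and Has3 at chr8:106870242-106884566. Hyal2 (chr9:107567945-107572779) and Hyal1 (chr9:107576927-107581710) are neighbours. Cemip lies at chr7:83932857-84086502, Cd44 at chr2:102811141-102901665, Tnfaip6 at chr2:52038009-52056686 and Vcan at chr13:89655312-89742509. Has3 shares 352 bp of exon with Chtf8 on the opposite strand, and Chtf8 differed by -0.34 at 4 weeks of bleomycin (limma adjusted p = 1.7e-05, under the fold criterion). Has2 shares 182 bp with its antisense gene Has2os, which was not called in any comparison.

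Other genes of hyaluronan metabolism and binding were examined by role. A list of 46 such genes was drawn up by role, 45 were found and 38 passed the filter. How many of all genes tested separate to the same degree was not counted, so separations of groups given for this list have no baseline. At 2 weeks of bleomycin 6 were higher and 6 lower than in saline, where 9.3% of all genes were higher and 7.43% lower. At 4 weeks 9 were higher and 5 lower, beside 10.5% and 7.37% of all genes. After 6 weeks of recovery 2 were higher and 3 lower, beside 3.33% and 1.71%, and after 10 weeks 0 were called, where limma gave 6 with an unadjusted p below 0.05 and edgeR and DESeq2 called 0.

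**Figure D4:**
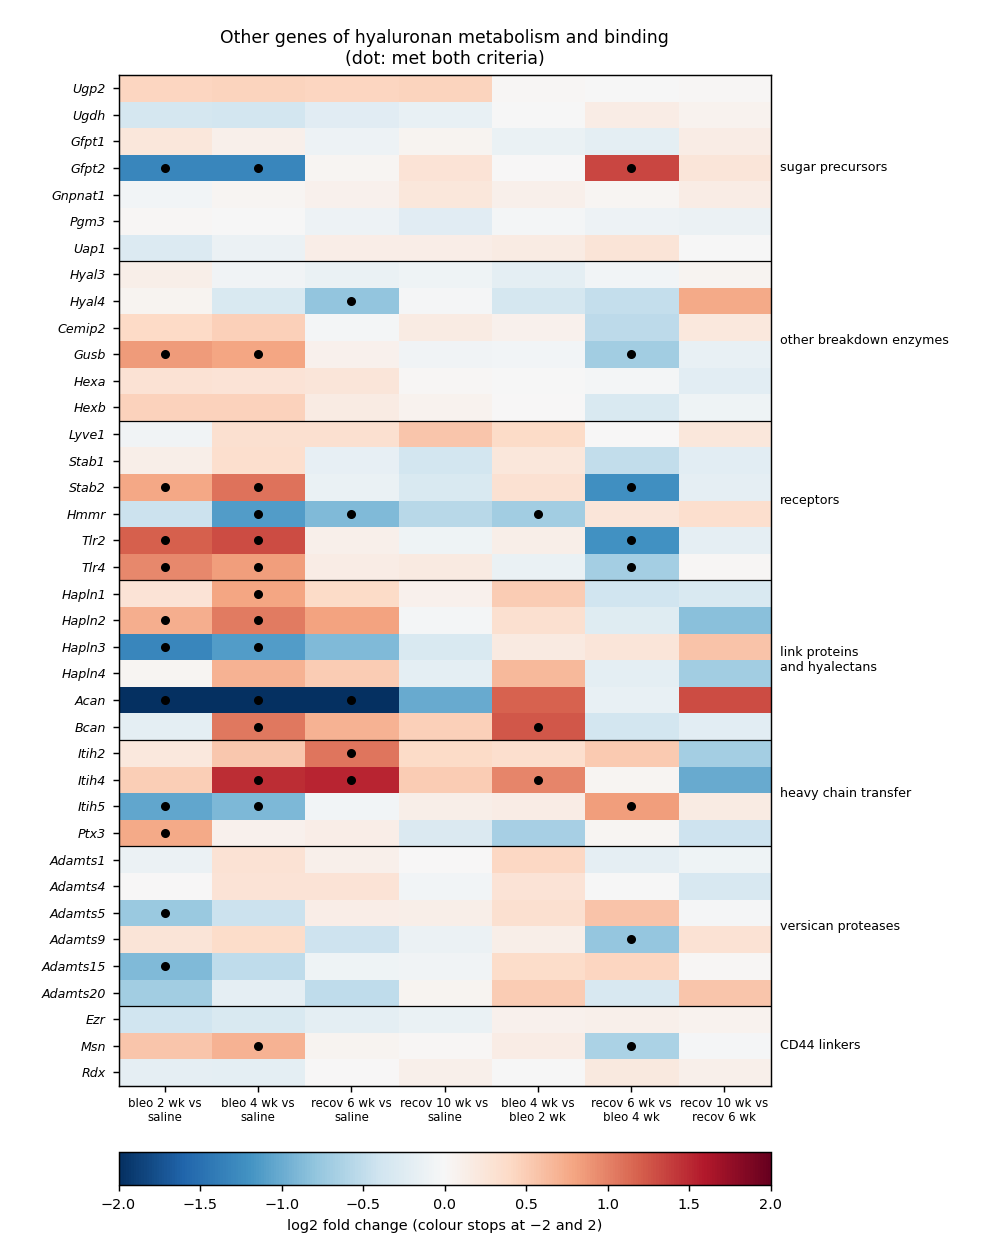
Log2 fold change of the 38 tested genes of the list in the 7 comparisons, grouped by role; dots mark genes that met both criteria. Receptors Tlr2, Tlr4 and Stab2 are red in both bleomycin columns and blue in 6 weeks of recovery against 4 weeks of bleomycin, and Gfpt2 and Itih5 show the opposite colours.

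Among the 7 genes that make the sugar precursors, 1 was called at 2 and 4 weeks. This was Gfpt2, which catalyses the entry step of the hexosamine route to UDP-N-acetylglucosamine. It held 188 to 389 in saline, 52.7 to 167 at 2 weeks and 77.2 to 133 at 4 weeks, so all 10 mice of each bleomycin group lay below every saline mouse. The changes were -1.31 and -1.30 (limma adjusted p = 1.4e-08 and 1.6e-08). At 6 weeks of recovery Gfpt2 held 225 to 324, above all 4-week mice (1.34, limma adjusted p = 4.8e-07).

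Of the 6 breakdown genes tested, Gusb was the one called with bleomycin. Gusb encodes the lysosomal beta-glucuronidase that removes sugars from hyaluronan fragments. It rose by 0.85 at 2 weeks and 0.79 at 4 weeks, with 9 of 10 mice above every saline mouse each time. Its normalized counts were 351 to 643 in saline, 540 to 1710 and 627 to 1288 in the 2-week and 4-week bleomycin groups, and 479 to 583 in the 6-week recovery group. Hyal4, a family member known to act on chondroitin sulfate, was lower than in saline at 6 weeks of recovery (-0.78, limma adjusted p = 0.018).

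Of the 6 receptors tested, 3 rose at 2 weeks and the same 3 at 4 weeks. Tlr2 and Tlr4 are innate immune receptors for which hyaluronan fragments have been described as ligands, and Stab2 is a scavenger receptor that clears hyaluronan. Tlr2 held 84.7 to 197 in saline, 162 to 491 at 2 weeks and 230 to 587 at 4 weeks (1.20 and 1.31, limma adjusted p = 8.5e-08 and 1.2e-08). Tlr4 held 48.9 to 151 in saline and 185 to 269 at 2 weeks, with no overlap (0.97, limma adjusted p = 5.8e-08). Stab2 was low throughout, at 1.21 to 9.65 in saline and 8.53 to 23.3 at 4 weeks (1.09, limma adjusted p = 0.00059). All 3 fell again by 6 weeks of recovery. Of the myeloid markers 5 of 6 were higher at 2 weeks and at 4 weeks. Their summed level was 6338 to 17018 and 5797 to 15590 against 2682 to 7545 in saline. Mast cell markers were higher in 4 of 4 at both times, and neutrophil markers in 4 of 4 and 2 of 4. Stress keratins were higher in 3 of 3 and 2 of 3. Lymphatic markers were higher in 2 of 3 at 4 weeks (740 to 1077 against 428 to 695 in saline). Blood vessel markers were higher in 1 of 3 at both times, Schwann cell markers in 1 of 3 and 3 of 3, and T cell markers in 1 of 4 at 2 weeks. All 7 hair shaft and all 6 inner root sheath markers were lower at both times, as were 2 of 4 fat cell markers. Fibroblast markers were lower in 3 of 5 and 1 of 5, and melanocyte markers in 3 of 3 at 2 weeks. The part of these cell types was not tested.

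Hmmr, listed as a receptor for hyaluronan and also known to act at the mitotic spindle, moved the other way. It held 138 to 254 in saline and 75.9 to 111 in the 6-week recovery group, and its medians at 2 and 4 weeks of bleomycin were 142 and 76.2. The changes from saline were -1.12 at 4 weeks (limma adjusted p = 9.5e-07) and -0.88 at 6 weeks of recovery (limma adjusted p = 0.0028). All 6 mice at 6 weeks of recovery lay below every saline mouse.

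Link proteins fasten proteoglycans of the Vcan family to hyaluronan. Of the 6 link and proteoglycan genes tested, 3 were higher and 2 lower at 4 weeks, nearly all at low counts. Acan, the aggrecan of cartilage, fell by 3.33 at 2 weeks and 2.15 at 4 weeks on the log2 scale, from 5.71 to 80.0 in saline to 0 to 31.6 and 0.978 to 11.4. It was still lower at 6 weeks of recovery (-2.30, limma adjusted p = 0.014), but this call was lost when 0.1 and not 1 was added before the log2 step. Hapln3 was also lower (-1.31 and -1.12), while Hapln2 was higher (0.73 and 1.05), and Hapln1 (0.78) and Bcan (1.05) were higher at 4 weeks. Without saline mouse 1 and 2-week mouse 2, Hapln2 was no longer called at 2 weeks. With 0.1 added before the log2 step, Hapln3 was no longer called at 4 weeks.

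Heavy chains that TSG-6 attaches to hyaluronan come from the Itih genes. Itih5 fell from 793 to 1544 in saline to 229 to 898 at 2 weeks and 475 to 728 at 4 weeks (-1.03 and -0.89, limma adjusted p = 1.5e-07 and 2.8e-06), and at 6 weeks of recovery it lay above all 4-week mice. Itih4, at few reads, was higher at 4 weeks (1.48) and at 6 weeks of recovery (1.52). Itih2 was higher at 6 weeks of recovery (1.07, limma adjusted p = 0.0486), and this call was lost without saline mouse 1 and 2-week mouse 2. Ptx3, which binds TSG-6, was higher at 2 weeks (0.75, limma adjusted p = 0.015), and this call was lost in the same way.

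Of the 6 proteases known to cut Vcan and its relatives, Adamts5 and Adamts15 fell at 2 weeks (-0.75 and -0.89), and at 4 weeks the changes of Adamts5 (-0.44) and Adamts15 (-0.51) on the log2 scale were under the fold criterion. Adamts5 held 583 to 927 in saline and 363 to 687 at 2 weeks, with 9 of 10 mice below every saline mouse. Adamts9 was lower at 6 weeks of recovery than at 4 weeks of bleomycin (-0.77, limma adjusted p = 0.0037). Msn, which ties Cd44 to the actin skeleton, was higher at 4 weeks (0.70), and all 10 mice (3464 to 5510) lay above the saline range (1989 to 3128). Ezr and Rdx, its relatives, were not called in any comparison.

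Genes with the most similar pattern were sought for each member over the 44 mice, as the Pearson r of log2 values after group means were taken off, among genes with a mean of at least 50. These are descriptions, and both genes of a pair share the depth and size factor of each mouse. Has3 was most like Top2a (r = 0.79), Arhgap11a (0.78) and Kif15 (0.78), and without saline mouse 1 and 2-week mouse 2 the values were 0.79, 0.79 and 0.78. Top2a, a topoisomerase of dividing cells, was lower than saline at 4 weeks (-0.98, limma adjusted p = 2.7e-05) and at 6 weeks of recovery (-0.98, limma adjusted p = 0.0019). Cemip was most like Bnc1 (r = 0.84), a transcription factor gene of stratified epithelia. Bnc1 differed from Cemip in its group levels: it was lower than saline at 2 weeks (-0.92) and at 4 weeks (-0.98), where Cemip was not. Tnfaip6 was most like Tfpi (0.69), Uap1 (0.68) and Rgs4 (0.65), and without the same pair of mice the values were 0.63, 0.63 and 0.56. Uap1 makes the UDP-N-acetylglucosamine that the synthases use.

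**Figure D5:**
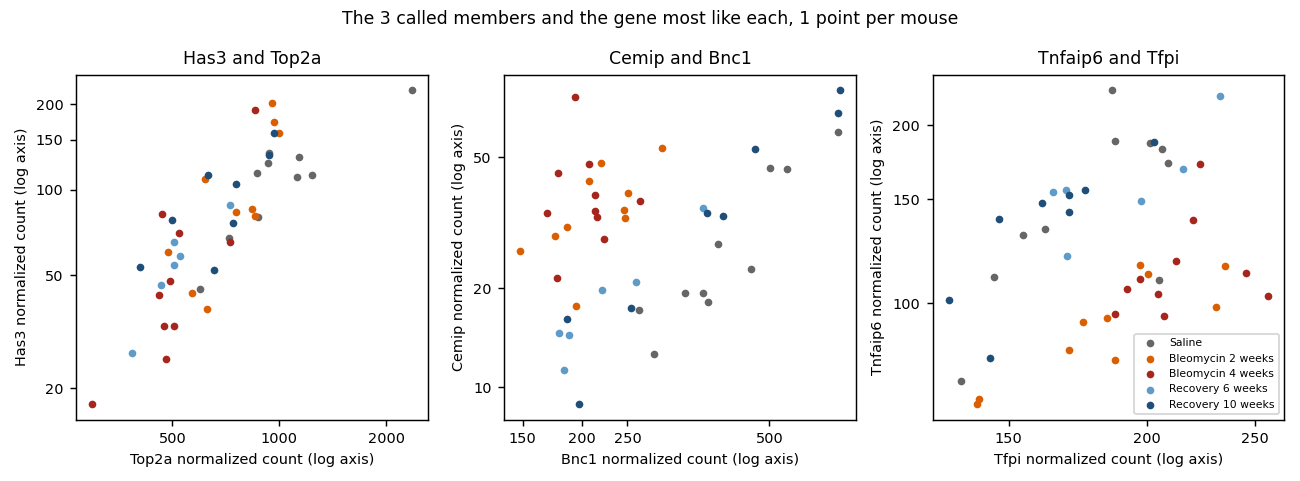
Normalized counts of Has3, Cemip and Tnfaip6 against the gene most like each within groups (Top2a, Bnc1 and Tfpi), both axes logarithmic, 1 point per mouse. Has3 and Top2a lie along a single band, while for Cemip and Bnc1 the bleomycin mice sit to the left of saline mice at the same Cemip level.

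Cd44 was most like Picalm (0.77), Vcan like Gria3 (0.79), Hyal1 like Ndst1 (0.88), Hyal2 like Tbc1d10a (0.75) and Has1 like Ccn4 (0.55). Without saline mouse 1 and 2-week mouse 2 these values were 0.77, 0.75, 0.82, 0.61 and 0.45. Has2 was most like Zfp62 (0.78), and that value fell to 0.53 without saline mouse 1 and 2-week mouse 2. Between members the highest value was that of Has3 and Cd44 (0.62), which was 0.61 without saline mouse 1 and 2-week mouse 2. Cemip and Vcan (0.42) and Hyal2 and Cd44 (0.41) came next, and without that pair of mice they stood at 0.37 and 0.32. They were then below Hyal1 and Cemip (0.48), Tnfaip6 and Vcan (0.45), Cd44 and Tnfaip6 (0.42) and Cd44 and Vcan (0.40). Has2 and Has3 were nearly unrelated (0.07). The lowest was that of Has2 and Hyal2 (-0.37), which was -0.05 without the same pair of mice.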

How the data were processed

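RNA from back skin was sequenced after TruSeq stranded mRNA library preparation as 50 bp paired-end reads. The authors aligned reads to mm10 with STAR 2.4.0, counted them per gene and deposited the signal as counts normalized with DESeq2 1.12.3. Which tool, strand setting and annotation were used for counting is not given in the sources used here. Whole reads were recovered from the step between values in each mouse (100.0% whole within a tolerance of 0.01). Symbols were matched for 42929 of 43411 genes (98.9%).

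Genes with a mean normalized count above 3 were tested after a log2 transformation of the normalized count + 1 (limma 3.58.1 with its trend option, R 4.3.3), so fold changes of low genes are understated. The 5 groups entered 1 fit. Recovered reads were tested with edgeR 4.0.16 and DESeq2 1.42.0. Exon lengths and overlaps came from GENCODE vM21. Called genes had an absolute fold change above 1.5 and a Benjamini-Hochberg adjusted p below 0.05. The scripts were tested on simulated data.

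The text names all members, every called gene of the role list, overlapping genes, and, of the 3 genes most like each member, all 3 for Has3 and Tnfaip6 and the first for the others. The members and lists were chosen with earlier results of these data known. Labels do not state that mice of a group were housed or injected separately, and the comparisons with saline share 10 saline mice. The depth sets the precision of low genes.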

Additional observations from a re-analysis of the deposited data

Results flagged for a closer look

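Single mice that lay far from the others of their group were sought in 45 groups of values (9 members in 5 groups), and 3 were found, where chance gives about 2.25. Has2 in 2-week bleomycin mouse 2 was at 19.5 normalized counts (15 reads), below the rest of its group. Hyal2 in the same mouse was at 594, above the rest. Has2 in 10-week recovery mouse 2 was at 100.4 (124 reads), above the rest. Neither Has2 nor Hyal2 was called in any comparison, with or without these mice.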

How the results depend on the processing

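The calls of Tnfaip6 at 2 weeks, Has3 at 4 weeks and Cemip between 4 weeks of bleomycin and 6 weeks of recovery kept their direction and passed both criteria under 10 other settings (a pseudocount of 0.1, no filter, a filter of 10 normalized counts in 6 mice, no fold change threshold, TMM rescaling, only the groups compared, 42 mice, the replicate block, edgeR and DESeq2). Dropping the fold change threshold could not remove a call, since it reused the main fit. For Cemip the 42 mice still held all mice of the 2 groups compared. The log2 fold changes of the 3 calls ran from -0.71 to -0.65, from -1.12 to -0.91 and from -1.07 to -1.01. The number of members called at 6 weeks of recovery against saline rose from 0 to 1 without a fold change threshold (Cd44), with only the groups compared (Has3, limma adjusted p = 0.0466) and with DESeq2 (Has3). Without a fold change threshold it rose from 1 to 3 between 4 weeks of bleomycin and 6 weeks of recovery (Cemip, Cd44 and Tnfaip6).

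Leaving out each of the 44 mice in turn was chosen after seeing the data. The number of members called ran from 0 to 2 at 2 weeks against saline, from 0 to 1 at 6 weeks of recovery against saline, from 0 to 1 between 4 and 2 weeks, and from 0 to 1 between 4 weeks of bleomycin and 6 weeks of recovery. Tnfaip6 was kept in 19 of 20 fits and lost without saline mouse 5, Has3 at 4 weeks in 20 of 20, and Cemip in 13 of 16. Has1 was gained at 2 weeks without 2-week mouse 9, Has3 at 6 weeks of recovery without saline mouse 8, and Has3 between 4 and 2 weeks without 2-week mouse 3 or 4-week mouse 1. The cause was not tested.

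Of the other genes of the pathway, 21 and not 12 were called at 2 weeks and 22 and not 14 at 4 weeks without a fold change threshold. With a pseudocount of 0.1 it was 3 and not 5 at 6 weeks of recovery, where Acan and Itih2 were lost. At 10 weeks of recovery 1 and not 0 was called without a fold change threshold (Ugp2) and with the replicate block (Hmmr). Between 4 and 2 weeks it was 5 and not 3 without that threshold, and between the recovery groups 1 and not 0 with DESeq2 (Itih4).

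Same-numbered mice of different groups did not in general deviate together (18 of 78 pairs above r = 0.1, median -0.0022, other numbers -0.0042). Single pairs ran from -0.69 to 0.38. The check gave no sign that the numbers pair the mice, but it could miss a small shared effect. The replicate block changed no call of a member: it gave 1, 1, 0, 0, 0, 1 and 0. Depth limits Has1 most, with 1 to 30 reads per mouse, then Cemip with 10 to 97.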
